A study of Sus scrofa with 24 samples.

Results

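Gene expression before the start of differentiation was compared between preadipocytes of the pig taken from 2 fat depots. Preadipocytes are the fibroblast-like precursors that turn into lipid-storing fat cells when a hormone mixture is added. The comparison took the day-0 libraries of intramuscular fat cells (IMF-0d) and of subcutaneous back fat cells (BF-0d) and expressed every difference as IMF-0d minus BF-0d. It used 6 of the 24 libraries of the series, 3 for each depot. The other libraries held cells of both depots on days 2, 4 and 8 and entered only the shared estimate of the spread and the comparison with later days. All animals were 6-day-old Yorkshire piglets. BF cells came from the subcutaneous fat of the back and IMF cells from the longissimus dorsi, the long muscle along the spine, and both were freed from the tissue with collagenase and grown attached to plastic in DMEM-F12 with serum. At day 0 no induction medium had been given. The labels do not say whether the 3 replicates of a depot came from separate animals (the methods name 3 piglets), so the p-values measure the spread between these samples, which may be technical.

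Subcutaneous fat forms under the skin early in life, whereas intramuscular fat lies between the muscle fibre bundles and is laid down late. Its amount is a meat quality trait. Precursors of both depots are stromal cells that carry PDGFRA, secrete collagen-rich matrix and multiply until they are confluent. During adipogenesis CEBPB and CEBPD come first and switch on PPARG and CEBPA, which in turn drive the genes of lipid storage. 

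Expression was deposited as FPKM, fragment counts scaled to transcript length and library size, and differences were taken on log2(FPKM + 1), a scale on which changes of weakly expressed genes come out too small. A gene was called when its adjusted p from limma was under 0.01 and its log2 difference was at least 1 in size. Replicates correlated at 0.993 to 0.994 in BF-0d and at 0.990 to 0.994 in IMF-0d across genes, which are not independent replicates, and libraries of different depots at 0.969 to 0.978. On principal components of the 6 libraries, the depots separated along the first one (67.7% of the variance). IMF-0d replicate 3 stood apart from the other two IMF-0d libraries on the second component (11.9% of the variance), at 20.7 against -11.5 and -11.7. Library totals ran from 307967 to 357861 FPKM, with 10499 to 10858 genes at 1 FPKM or more. Read counts are not recoverable from these values, so the depth behind a value is unknown and an exact 0 can be a failed estimate.

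Markers of the labelled cell type were present in all 6 libraries. PDGFRA was at 63.4, 84.9 and 82.7 FPKM in BF-0d and at 70.3, 59.2 and 50.8 FPKM in IMF-0d. COL1A1 was at 5341 to 6050 FPKM in BF-0d and at 5942 to 6518 FPKM in IMF-0d, and the groups overlapped for both genes. Vimentin (VIM), the filament protein of mesenchymal cells, was at 3301 to 3812 FPKM in BF-0d and at 6070 to 6927 FPKM in IMF-0d, below the fold threshold. Summed over the 19 stromal markers tested, expression was 12213 to 13577 FPKM in BF-0d and 15761 to 16854 FPKM in IMF-0d. CD34 was low in both depots, at 1.38 to 1.64 FPKM in BF-0d and 1.53 to 2.30 FPKM in IMF-0d, and the preadipocyte marker DLK1 was listed at 0 in 5 of the 6 libraries.

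Defining markers of fat cells were near 0. ADIPOQ and LEP, the genes of adiponectin and leptin, stayed under 0.04 FPKM in every library. Of 21 markers of mature adipocytes, 18 had an ID in the table, 12 were under 1 FPKM in all 6 libraries and 8 were tested. Their summed level was 35.8 to 38.1 FPKM in BF-0d and 37.5 to 49.1 FPKM in IMF-0d, with RBP4 called higher and FABP4 lower (over all genes 1.87% were called higher and 0.713% lower). FABP4, the fatty acid carrier of adipocytes, was at 1.91, 1.75 and 2.41 FPKM in BF-0d and listed at 0 in all 3 IMF-0d libraries. The log2 difference was -1.59 ± 0.238 (SE), with an adjusted p of 7.86e-05.

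Muscle precursors were looked for because IMF cells were cut out of muscle. PAX7, MYF5, MYOD1 and MYOG, the transcription factors that define satellite cells and myoblasts, were listed at 0 in all 6 libraries. Of the 20 myogenic markers, 15 were under 1 FPKM throughout and 5 passed the filter on low values. DES, NCAM1 and ITGA7 were called higher in IMF-0d (1.87% of all genes), and the summed level of the list was 16.7 to 20.6 FPKM in BF-0d against 94.7 to 101 FPKM in IMF-0d. DES and NCAM1 carried nearly all of this sum. Endothelial markers summed to 26.3 to 27.3 FPKM in BF-0d and 25.7 to 32.6 FPKM in IMF-0d, with KDR at 0. Immune markers summed to 285 to 376 and 317 to 404 FPKM, almost entirely from CD74 and CD79A, with PTPRC at 0 in every library. Schwann cell markers summed to 38.3 to 50.9 and 44.0 to 63.3 FPKM, mostly from ERBB3, cartilage markers to 5.29 to 6.09 and 6.17 to 6.62 FPKM, and keratinocyte markers to 0.641 to 0.760 and 1.60 to 1.69 FPKM. In the endothelial, immune, Schwann cell, cartilage and keratinocyte lists, 0 of 6, 8, 7, 5 and 3 tested genes were called by limma, also in the fit on the 6 day-0 libraries alone, and 1, 1, 1, 1 and 2 had an unadjusted p under 0.05. Over all genes 2.58% were called in the shared fit and 25.6% had an unadjusted p under 0.05. With so few tested genes, 0 calls is close to the share of all genes. In bulk samples fewer cells of a type and less RNA per cell cannot be told apart.

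Before induction 417 of 16135 genes were called (2.58%). Of these, 302 were higher in IMF-0d (1.87% of the genes tested) and 115 were lower (0.713%). Higher genes made up 72.4% of the calls as deposited, 64.3% after median ratio scaling and 62.3% after quantile normalization. The median of all genes, which include weakly expressed ones that this scale compresses, moved by -0.03 and -0.04. After median ratio scaling GAPDH moved from 1.12 to 1.03 and CAV1 from 0.06 to -0.02. The median difference of all tested genes was 0.02, and 54.8% of them were above 0. All IMF-0d libraries were above all BF-0d libraries for 23.5% of the tested genes and below them for 14.7%, which is the background for the statements on overlap below. A 4-fold difference or more was reached by 45 of the higher and 14 of the lower genes. The 417 called genes included 21 transcripts assembled by the authors outside the annotation and 355 genes with a symbol. All 417 had libraries that did not overlap between the depots.

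**Figure D1:**
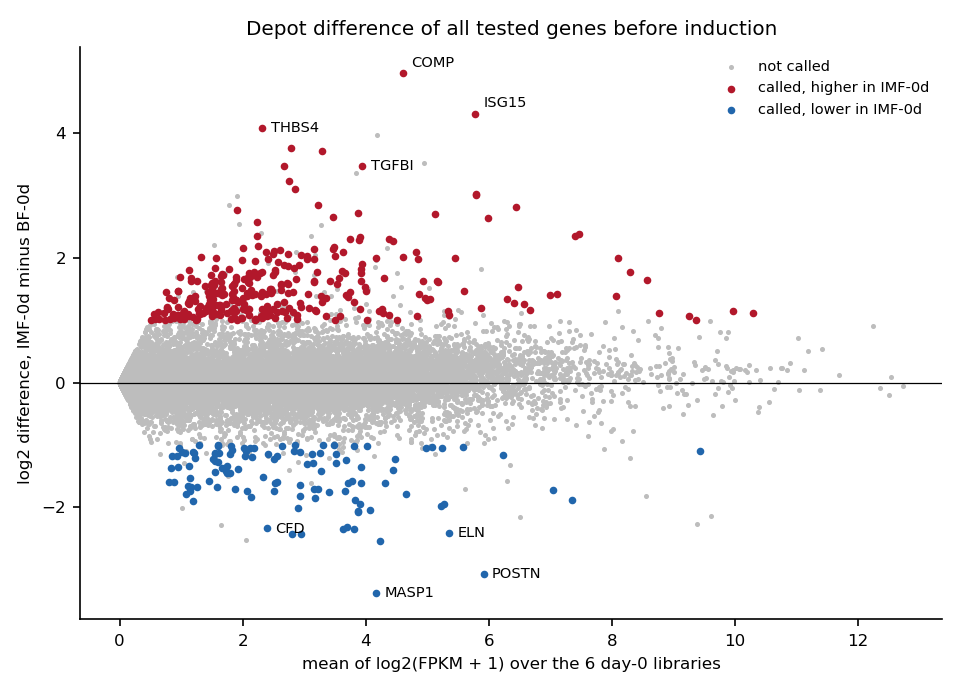
Each point is 1 of the 16135 tested genes, with the mean of log2(FPKM + 1) over the 6 day-0 libraries on the horizontal axis and the log2 difference IMF-0d minus BF-0d on the vertical axis. The 302 red points above 1 and the 115 blue points below -1 are the called genes. Among those with a symbol, COMP at the top and MASP1 at the bottom mark the ends of the range.

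The largest differences higher in IMF-0d included secreted matrix proteins and interferon-stimulated genes. COMP, the cartilage oligomeric matrix protein that ties collagen fibrils together (chr2:59061409-59068951 on Sscrofa11.1), was at 3.29, 3.59 and 3.16 FPKM in BF-0d and at 140, 113 and 153 FPKM in IMF-0d. The log2 difference was 4.96 ± 0.457 (SE), with an adjusted p of 1.98e-07, and the mean level was 40.5-fold higher. Every IMF-0d library held far more COMP than any BF-0d library.

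THBS4, a thrombospondin of tendon and muscle attachment, was close to absent in BF-0d, at 0.0826, 0.17 and 0.422 FPKM. In IMF-0d it was at 18.5, 19.7 and 20.4 FPKM. Its log2 difference of 4.08 ± 0.112 had the smallest adjusted p among the genes named here, 1.53e-15. The IMF-0d libraries lay close together and the BF-0d libraries were near the floor of the scale. TGFBI, an integrin-binding matrix protein induced by TGF-beta, was at 3.50, 3.46 and 3.87 FPKM in BF-0d and at 51.5, 46.6 and 53.1 FPKM in IMF-0d, with a log2 difference of 3.48 ± 0.361 and an adjusted p of 8.9e-07. TUBB3, a beta-tubulin best known from neurons, was at 1.51, 1.78 and 1.79 FPKM in BF-0d and at 42.7, 25.3 and 36.5 FPKM in IMF-0d, with a log2 difference of 3.71 ± 0.293.

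Matricellular proteins, which sit in the matrix and tune the attachment and signalling of cells, were called higher in 8 of 25 tested members and lower in 1, against 1.87% and 0.713% of all genes. The median difference over the list was 0.50. Beside COMP, THBS4 and TGFBI, the higher members were SMOC1 (0.446 against 8.84 FPKM on average), TNXB (0.922 against 10.4 FPKM), TNC (76.4 against 404 FPKM), THBS3 (7.30 against 27.0 FPKM) and TNN (0.979 against 3.74 FPKM). Tenascin-C (TNC) is the most abundant of them, and it rose from 74.7, 79.4 and 75.1 FPKM in BF-0d to 455, 373 and 384 FPKM in IMF-0d, a log2 difference of 2.38 ± 0.132 with an adjusted p of 3.17e-10. The most abundant members of the list were not called. SPARC was at 2774 FPKM on average in BF-0d and 2550 FPKM in IMF-0d, and fibronectin (FN1) at 1959 and 2786 FPKM. The exception in the other direction was periostin (POSTN), described with the lower genes.

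Several of these genes also mark tendon, where 4 of 10 listed genes were called higher (COMP, THBS4, TNC and FMOD) and 1 lower (1.87% and 0.713% of all genes), and 3 were higher after either scaling, without FMOD. The lower gene was tenomodulin (TNMD), the membrane protein most specific to tendon cells, at 2.79, 3.08 and 2.64 FPKM in BF-0d and at 0, 0.388 and 0.284 FPKM in IMF-0d. SCX, the transcription factor of tendon progenitors, was under 0.4 FPKM in all 6 libraries. MKX, another tendon regulator, was at 15.8, 16.1 and 16.5 FPKM in BF-0d and at 19.2, 19.3 and 16.1 FPKM in IMF-0d, without a call. The 4 higher genes code for matrix proteins.

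**Figure D2:**
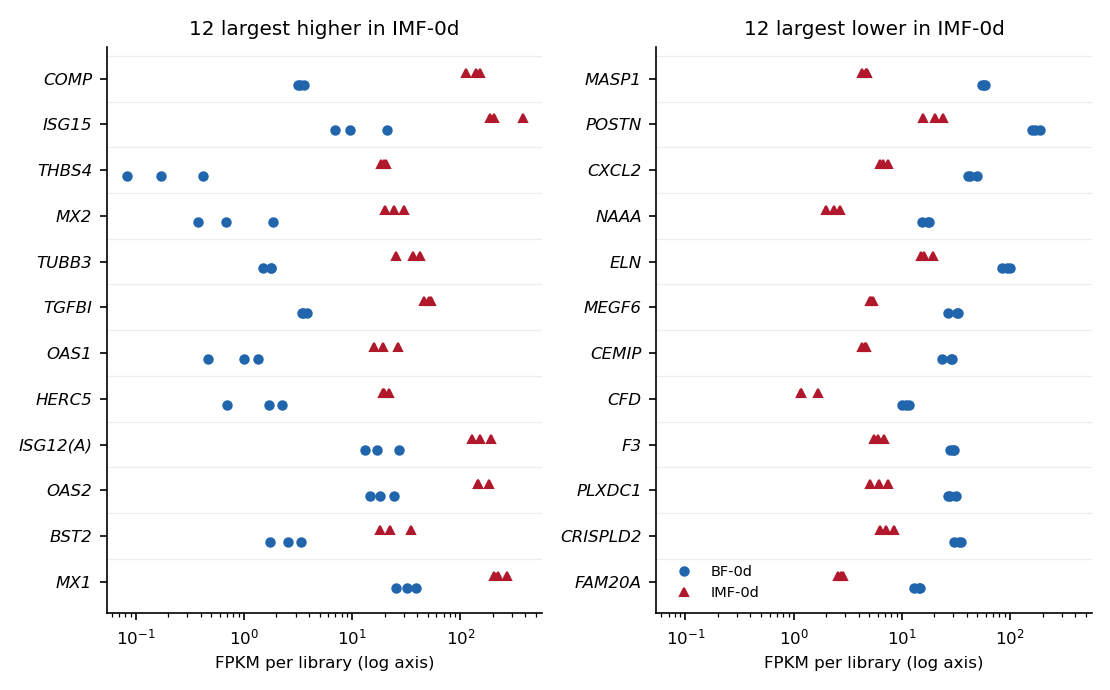
Each marker is the FPKM of 1 library on a log axis, circles for the 3 BF-0d and triangles for the 3 IMF-0d libraries. The genes are the 12 largest differences in each direction among called genes with a symbol. The circles and triangles of a gene do not overlap in any row, and the BF-0d circles of the interferon-stimulated genes are spread more widely than those of COMP or TGFBI.

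Interferon-stimulated genes made up 8 of the 12 largest differences higher in IMF-0d among called genes with a symbol. Cells transcribe these genes when interferon binds its receptor and a transcription factor complex with STAT2 and IRF9 enters the nucleus, and many of their products block virus replication. ISG15, a ubiquitin-like protein that is attached to other proteins, was at 21.1, 6.98 and 9.59 FPKM in BF-0d and at 188, 204 and 376 FPKM in IMF-0d. Its log2 difference was 4.31 ± 0.959, with an adjusted p of 0.00422. The call held without BF-0d replicate 1 (adjusted p = 0.00745 by limma) but was lost without any other single day-0 library (up to 0.0249). The order of the depots was clear in all libraries, but BF-0d replicate 1 held the most ISG15 of its group and IMF-0d replicate 3 the most of its own.

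MX2 and MX1 code for GTPases that trap virus particles and lie next to each other (chr13:204798633-204821612 and chr13:204843049-204868927). MX2 was at 1.86, 0.377 and 0.682 FPKM in BF-0d and at 24.2, 20.1 and 30.2 FPKM in IMF-0d. MX1 was at 39.2, 25.4 and 32.3 FPKM against 225, 204 and 269 FPKM. In both genes BF-0d replicate 1 was the highest and replicate 2 the lowest of its depot. OAS1 and OAS2 code for sensors of double-stranded RNA and are also neighbours (chr14:38851083-38867427 and chr14:38827667-38847697). OAS1 was at 1.35, 0.465 and 1.0 FPKM in BF-0d and at 19.4, 15.9 and 26.5 FPKM in IMF-0d, and OAS2 at 24.5, 14.5 and 17.9 against 145, 145 and 182 FPKM. MX1 and MX2, and likewise OAS1 and OAS2, are similar in sequence, and how reads shared between them were split is uncertain. Neither MX2 nor OAS1 was called in any limma fit without 1 day-0 library (adjusted p up to 0.0293 and 0.0237). MX1 kept its call only without BF-0d replicate 1 or IMF-0d replicate 2. OAS2 lost its call only without BF-0d replicate 2.

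HERC5, the ligase that attaches ISG15, was at 2.27, 0.700 and 1.71 FPKM in BF-0d and at 19.6, 19.4 and 21.7 FPKM in IMF-0d. BST2, which tethers budding virus particles, was at 3.39, 1.73 and 2.54 against 18.2, 22.2 and 34.7 FPKM. ISG12(A), an interferon-inducible mitochondrial protein, was at 27.4, 13.2 and 17.0 against 129, 152 and 193 FPKM. Log2 differences of these 3 genes were 3.10 ± 0.74, 2.85 ± 0.627 and 3.02 ± 0.716, with adjusted p of 0.007, 0.00387 and 0.0067. Leaving out 1 library kept the call in 0, 2 and 0 of 6 fits, and ISG12(A) was also not called after median ratio scaling (adjusted p = 0.0103 by limma) or without the filter on low values (0.0119). HERC5 was not called under these settings either (0.0105 and 0.0123), and MX2 was not called without the filter.

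Over the 37 listed interferon-stimulated genes tested, 8 were called higher in IMF-0d and 0 lower, against 1.87% and 0.713% of all genes, and the median difference was 1.51. All 37 differences were above 0, and in 34 of the genes the 3 IMF-0d libraries all exceeded the 3 BF-0d libraries. The summed level was 347 to 483 FPKM in BF-0d and 1691 to 2326 FPKM in IMF-0d. ISG12(A) is not on this list. The shared fit includes the BF-8d libraries, in which ISG15 ran from 90.5 to 2764 FPKM, and the SE of the day-0 difference of ISG15 was 0.959 there and 0.406 in a fit on the 6 day-0 libraries. IFIT1 was at 11.3, 6.45 and 7.15 FPKM in BF-0d and at 97.4, 92.7 and 120 FPKM in IMF-0d, and its log2 difference of 3.51 ± 0.946 had an adjusted p of 0.0165. In a fit on the 6 day-0 libraries alone 28 of the 37 genes were called higher, against 2.32% of all genes.

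Members of the signalling complex were compared as well. IRF9 was called, with a log2 difference of 1.38 ± 0.294 and a call kept in 2 of the 6 fits without 1 library, and STAT2 was not (13.9 against 18.4 FPKM). RIGI, an RNA sensor, showed a single high library: IMF-0d replicate 3 was at 63.5 FPKM, whereas the other IMF-0d libraries were at 3.73 and 3.61 FPKM and the BF-0d libraries at 7.89 to 11.7 FPKM. Leaving out a library left between 0 and 5 calls in the list, namely 5 without BF-0d replicate 1, 0 without BF-0d replicate 2, 1 without BF-0d replicate 3, and 2, 3 and 1 without IMF-0d replicates 1, 2 and 3. The differences kept their sign in each case for the 8 genes among the largest.

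Promoters of these genes often hold the interferon-stimulated response element, the DNA word bound by the complex with STAT2 and IRF9. A 9-letter core of it, GAAANNGAA, was searched on both strands in the 250 bases before the RefSeq gene start. It occurred in 16 of 34 promoters of the list (47.06%) and in 5.752% of the promoters of all tested genes. Among genes called higher in IMF-0d it occurred in 8.434%, and among those called lower in 4.04%. The windows of ISG15 and MX2 are printed below from Sscrofa11.1, 5′ to 3′ on the coding strand, because they show how the letters repeat in ISG15, with the matches in capitals. ISG15 (chr6:63362951-63363200, plus strand) holds 4 matches, of which 3 overlap and 1 stands apart, and MX2 (chr13:204798383-204798632, plus strand) holds none of exactly these letters in this window. A match describes the sequence and is not a shown binding site.
ISG15: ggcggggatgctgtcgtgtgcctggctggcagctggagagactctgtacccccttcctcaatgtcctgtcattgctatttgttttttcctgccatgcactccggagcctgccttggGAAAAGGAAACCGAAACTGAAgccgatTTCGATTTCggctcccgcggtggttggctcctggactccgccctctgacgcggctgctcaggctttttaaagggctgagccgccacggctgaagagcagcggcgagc
MX2: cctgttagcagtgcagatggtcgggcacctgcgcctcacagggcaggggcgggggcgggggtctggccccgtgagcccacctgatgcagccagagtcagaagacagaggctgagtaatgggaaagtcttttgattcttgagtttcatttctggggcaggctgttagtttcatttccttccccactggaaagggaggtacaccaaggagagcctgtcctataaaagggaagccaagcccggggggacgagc

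Genes of cell division were higher in IMF-0d as a group. Of 35 tested mitosis genes 32 were called higher and 0 lower, with a median log2 difference of 1.59, against a background of 1.87% of all genes called higher. CDC20, which activates the anaphase-promoting complex, was at 4.15, 5.18 and 5.93 FPKM in BF-0d and at 32.1, 23.9 and 30.7 FPKM in IMF-0d, a log2 difference of 2.30 ± 0.268 with an adjusted p of 3.78e-06. UBE2C, the ubiquitin-conjugating enzyme of the same complex, was at 4.78, 5.57 and 6.81 against 29.8, 30.4 and 35.2 FPKM. KIF20A, a kinesin of the dividing spindle, was at 4.01, 4.30 and 4.46 against 25.3, 21.3 and 22.1 FPKM. No IMF-0d library overlapped with a BF-0d library in these genes.

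PRC1, which bundles microtubules between the separating chromosomes, was at 0.925, 0.958 and 0.812 FPKM in BF-0d and at 8.68, 7.11 and 6.62 FPKM in IMF-0d. MYBL2, a transcription factor of the cell cycle, had a log2 difference of 1.91 ± 0.174. The kinases and cyclins of mitotic entry followed, with mean levels of 1.20 against 5.07 FPKM for CDK1 and 4.62 against 22 FPKM for CCNB1. The 3 members without a call were CENPF (1.5 against 4.76 FPKM, adjusted p = 0.0349), CENPE (1.35 against 2.91 FPKM) and ECT2 (11.4 against 13.1 FPKM). Summed over the list, expression was 88.4 to 99 FPKM in BF-0d and 338 to 411 FPKM in IMF-0d. Leaving out a library left 27 to 32 calls.

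DNA replication genes, which act before mitosis in the S phase, were called higher in 14 of 41 members (1.87% of all genes) and lower in 0, with a median of 0.78. By adjusted p alone 30 members were higher, against 5.31% of all genes. TK1, the salvage kinase of thymidine, was at 2.49, 2.44 and 3.96 FPKM in BF-0d and at 13.9, 11.2 and 15.6 FPKM in IMF-0d. The helicase subunits MCM5, MCM3 and MCM4 had log2 differences of 1.62 ± 0.184, 1.60 ± 0.241 and 1.45 ± 0.244. The general single-strand binding protein RPA1 was at 29.8 against 30.7 FPKM on average and the clamp loader RFC2 at 27.2 against 46.4 FPKM, both without a call. Of 18 cell cycle inhibitors and p53 targets, 1 (CDKN2C) was called higher (3.63 against 8.47 FPKM, with 1.87% of all genes called higher), but not without BF-0d replicate 1 (0.98 on the log2 scale) or after median ratio scaling (0.96). The p21 gene CDKN1A, at 169 to 189 FPKM in BF-0d and 184 to 227 FPKM in IMF-0d, and CCNG1 were not called.

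The promoters of mitosis genes are shown for the 3 members with the largest differences, since cell cycle genes are known to share short promoter words. TTTGAA, the core of the cell cycle homology region, was present on either strand in 11 of 35 mitosis promoters (31.43%) and in 10.08% of all promoters. CCAAT was present in 18 of 35 (51.43%) and in 32.51% of all. TTTGAA was also found in 16.87% of the promoters of genes called higher and in 21.21% of those called lower. The E2F words TTTCCCGC or TTTGGCGC were present in 5 of 41 DNA replication promoters (12.2%) and in 2.576% of all. Capitals mark TTTGAA and CCAAT on either strand in the windows of CDC20 (chr6:167890588-167890837, minus strand), UBE2C (chr17:48018153-48018402, plus strand) and KIF20A (chr2:140202066-140202315, plus strand), each 250 bases from Sscrofa11.1, 5′ to 3′ on the coding strand. UBE2C holds 5 CCAAT words and 1 TTTGAA, CDC20 holds 1 TTTGAA, and KIF20A holds 2 CCAAT words.
CDC20: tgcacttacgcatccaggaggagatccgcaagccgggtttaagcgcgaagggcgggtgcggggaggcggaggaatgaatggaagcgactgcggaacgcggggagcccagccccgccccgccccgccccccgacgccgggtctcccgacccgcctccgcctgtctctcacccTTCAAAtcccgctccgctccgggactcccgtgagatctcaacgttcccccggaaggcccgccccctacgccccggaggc
UBE2C: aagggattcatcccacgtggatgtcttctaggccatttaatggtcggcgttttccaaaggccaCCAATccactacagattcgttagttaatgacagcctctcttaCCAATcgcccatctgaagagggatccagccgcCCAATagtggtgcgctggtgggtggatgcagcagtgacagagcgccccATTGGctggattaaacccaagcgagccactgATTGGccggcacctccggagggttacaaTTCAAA
KIF20A: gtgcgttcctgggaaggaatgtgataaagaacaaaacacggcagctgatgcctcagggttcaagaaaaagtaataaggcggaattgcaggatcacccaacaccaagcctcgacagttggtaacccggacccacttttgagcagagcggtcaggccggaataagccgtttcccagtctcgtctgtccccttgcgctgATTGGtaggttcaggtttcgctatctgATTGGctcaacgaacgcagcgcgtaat

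Glycolysis, the breakdown of glucose to pyruvate and lactate, was higher in IMF-0d in 5 of 22 genes and lower in 0 (1.87% and 0.713% of all genes), and all 22 differences were above 0 (54.8% of all genes) with a median of 0.87. The lactate exporter SLC16A3 was at 3.08, 3.05 and 3.15 FPKM in BF-0d and at 14.7, 13.9 and 19.3 FPKM in IMF-0d. GAPDH was at 844, 805 and 893 against 1764, 1689 and 2084 FPKM. PKM, which makes pyruvate, was at 287, 297 and 302 against 636, 574 and 711 FPKM. The depots did not overlap, and replicate 3 was the highest IMF-0d library in each. ENO1 and ENO3, the enolases, were also called (kept in 1 and 5 of the 6 fits without 1 library), and LDHA missed the fold threshold at 0.99 (270 against 538 FPKM). Several members sat at that threshold, and the number of calls was 2 after median ratio scaling, 2 after quantile normalization, 2 without IMF-0d replicate 3 and 3 without BF-0d replicate 1. SLC16A3 was called in 0 of the 6 fits without 1 library, with adjusted p up to 0.031. The limma fit on the 6 day-0 libraries gave it an adjusted p of 3.88e-05. GAPDH is used as a reference gene in many assays, and its log2 difference here was 1.12 ± 0.186.

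The citrate cycle, which burns the products of glycolysis in mitochondria, had 0 called members of 26 by limma, in the shared fit and in the fit on 6 libraries, with a median of 0.23, and 11 had an unadjusted p under 0.05 (25.6% of all genes). Without IMF-0d replicate 3, 1 member was called lower. In 21 of the 26 the difference was above 0 (54.8% of all genes), and in 14 all IMF-0d libraries were above those of BF-0d (23.5%). By adjusted p alone 1 member was higher and 1 lower. MDH2 was at 77.4, 79.9 and 80.3 FPKM in BF-0d and at 102, 92.0 and 109 FPKM in IMF-0d (adjusted p = 0.0452), and SDHD at 54.9 against 66.9 FPKM on average. Of the 35 genes of branched-chain amino acid, propanoate and butanoate breakdown, OXCT1, which lets mitochondria use ketone bodies, was the 1 gene called (2.58% of all genes), lower in IMF-0d, at 11.9, 12.1 and 13.6 against 3.78, 3.80 and 2.55 FPKM. ACAT1 and HMGCS1, the most abundant members, were not called.

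**Figure D3:**
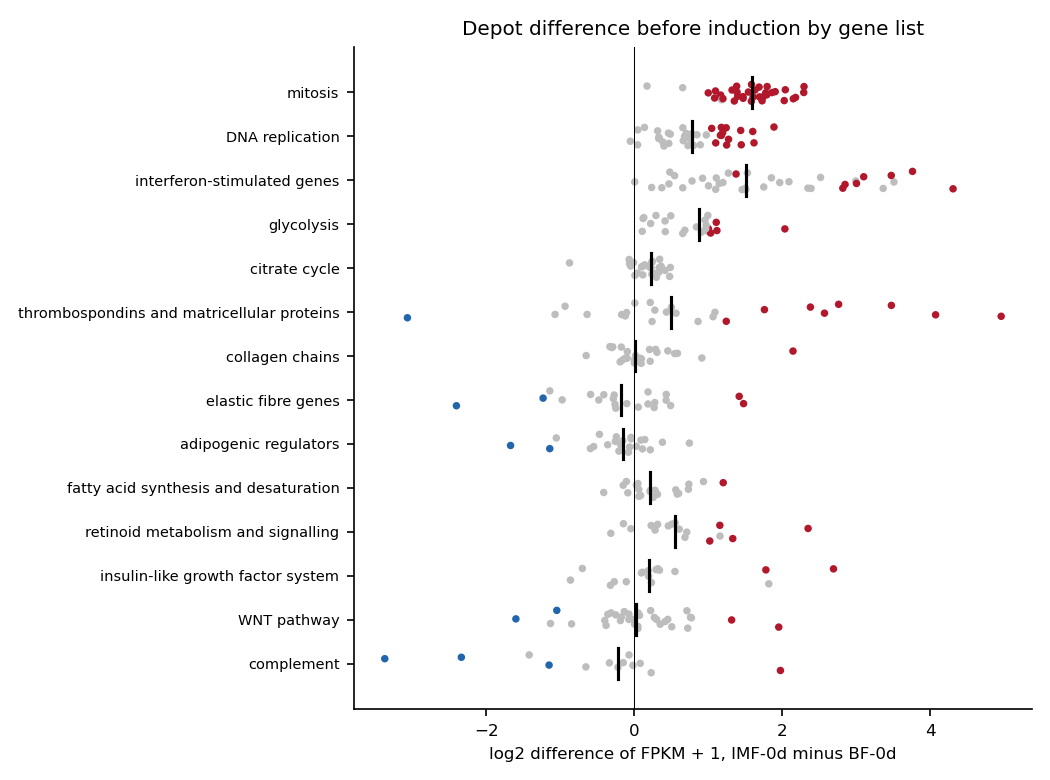
Each point is a tested member of a gene list placed at its log2 difference IMF-0d minus BF-0d, red or blue where it was called higher or lower and grey where it was not called, and the black bar is the median of the list. The points of the mitosis list lie almost wholly above 1 with a median of 1.59, whereas the citrate cycle list has a median of 0.23 and no coloured point.

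Among the called genes with a symbol lower in IMF-0d, MASP1 had the largest difference. It codes for a serine protease that starts the lectin pathway of complement (chr13:124938469-125028440). MASP1 was at 57.1, 58.4 and 55.5 FPKM in BF-0d and at 4.33, 4.77 and 4.68 FPKM in IMF-0d, a log2 difference of -3.38 ± 0.237 with an adjusted p of 4.66e-09. CFD, the complement factor D protease that fat tissue secretes as adipsin, was at 9.98, 10.9 and 11.6 against 1.17, 1.17 and 1.67 FPKM. CFB, its substrate, was at 4.01, 3.36 and 2.78 against 0.879, 1.12 and 0.879 FPKM. The mean level was 12.4-fold lower in IMF-0d for MASP1 and 8.07-fold lower for CFD, and CFB kept its call in 2 of the 6 fits without 1 library. In the complement list of 13 tested genes, these 3 were lower and C4A was higher (1.69 against 9.63 FPKM), against 0.713% of all genes called lower. CLU and SERPING1, its most abundant members, were not called.

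Other lower genes belonged to the matrix and the cell surface. Periostin (POSTN), a matricellular protein of collagen-rich tissue, was at 161, 171 and 190 FPKM in BF-0d and at 20.4, 24.2 and 15.7 FPKM in IMF-0d, a log2 difference of -3.07 ± 0.373 with an adjusted p of 6.21e-06. Elastin (ELN), which gives tissue its recoil, was at 85.2, 94.4 and 100 against 15.9, 15.1 and 19.5 FPKM. CEMIP, which degrades hyaluronan, was at 23.5, 28.6 and 29.3 against 4.53, 4.69 and 4.31 FPKM. Mean levels were 8.66-fold, 5.54-fold and 6.02-fold lower in IMF-0d. CXCL2, a chemokine that attracts neutrophils, was at 49.9, 42.3 and 40.8 against 7.48, 6.71 and 6.24 FPKM. Its adjusted p of 0.00736 passed the threshold in 0 of the 6 fits without 1 library. In those fits its log2 difference ran from -2.45 to -2.60, and the limma fit on the 6 day-0 libraries gave an adjusted p of 1.51e-05.

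NAAA, a lysosomal amidase of lipid amides, was at 15.4, 17.9 and 17.5 FPKM in BF-0d and at 2.66, 1.99 and 2.38 FPKM in IMF-0d. F3, the tissue factor that starts blood clotting, was at 27.7, 29.7 and 30.6 against 5.56, 6.87 and 6.09 FPKM. MEGF6, PLXDC1, CRISPLD2 and FAM20A completed the 12 largest differences lower in IMF-0d among called genes with a symbol. Their log2 differences ran from -2.36 ± 0.249 for MEGF6 to -2.01 ± 0.137 for FAM20A. Genes without a symbol were not ranked, and 14 called genes in all were lower by 4-fold or more. F3 marks a class of stromal cells known from fat, and DPP4 marks another. DPP4 was likewise lower in IMF-0d, at 16, 16.6 and 18.1 against 6.94, 6.98 and 5.17 FPKM, as was the adhesion protein ICAM1 (68.0 against 32.6 FPKM, a call kept in 1 of the 6 fits without 1 library). In the same list of stromal markers NT5E, the ecto-enzyme CD73, was higher, at 5.47, 5.79 and 5.72 against 37.2, 29.8 and 30.7 FPKM, and so was endoglin (ENG), at 18.7 against 40.4 FPKM, which was not called after median ratio scaling or quantile normalization. The depots differed in both directions within the stromal list, with 2 of 19 markers higher and 3 lower (1.87% and 0.713% of all genes).

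Of 23 regulators of adipogenesis tested, 0 were called higher and 2 lower, against 1.87% and 0.713% of all genes, and the median was -0.16. In 9 of the 23 all IMF-0d libraries were below those of BF-0d (14.7% of all genes), and in 2 above (23.5%). PPARG, the receptor that commits cells to the fat lineage, was at 3.11, 2.57 and 3.33 FPKM in BF-0d and at 0.425, 0.147 and 0.195 FPKM in IMF-0d. Its log2 difference was -1.67 ± 0.295, with an adjusted p of 0.000466, and the call held in 6 of 6 fits without 1 library. KLF15, an activator of PPARG and a glucocorticoid target, was at 3.81, 4.47 and 4.26 against 1.54, 1.20 and 1.29 FPKM. Both genes were low in each depot but did not overlap between them.

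The early factors were not called. CEBPD was at 36.8, 44.6 and 47.2 FPKM in BF-0d and at 18.7, 16 and 26.6 FPKM in IMF-0d. Its adjusted p was 0.0129 in the shared fit and 0.00516 in the fit on 6 libraries, where it was called. CEBPD was also called after quantile normalization (adjusted p = 0.00335 by limma), with the replicate block on the 6 libraries (0.00618) and without IMF-0d replicate 3 (0.00989). CEBPB was at 10.3, 13 and 15.2 against 9.38, 9.57 and 12.7 FPKM, and CEBPA at 1.93, 2.61 and 2.24 against 1.58, 2.06 and 1.62 FPKM. Their libraries overlapped between depots. KLF4, the most abundant regulator of the list, was at 77.9 against 73.9 FPKM on average, and EBF2, at 3.32 against 6.29 FPKM, missed both thresholds, with a log2 difference of 0.75 and an adjusted p of 0.0183.

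Of 21 genes of fatty acid synthesis and desaturation, 17 had a difference above 0 (54.8% over all genes) with a median of 0.22, and in 9 all IMF-0d libraries were above those of BF-0d (23.5% of all genes) and in 3 all below (14.7%). Their summed level was 313 to 327 FPKM in BF-0d and 453 to 473 FPKM in IMF-0d. ACLY, which supplies acetyl-CoA for fatty acid synthesis, was at 36.1, 38.0 and 38.3 FPKM in BF-0d and at 92.6, 85.0 and 85.2 FPKM in IMF-0d, the 1 called member of 21 synthesis and desaturation genes (2.58% of all genes). The count was 2 without IMF-0d replicate 1 or with a pseudocount of 0.1. The log2 difference of ACLY was 1.20 ± 0.12, with an adjusted p of 4.79e-07. The desaturase SCD, at 38.2 against 64.2 FPKM, had an adjusted p of 0.0265, and fatty acid synthase (FASN) was at 40.7 against 49.0 FPKM. In the uptake list of 16 genes 1 was called higher and 1 lower, against 1.87% and 0.713% of all genes. FABP3, the muscle-type fatty acid carrier, was higher (3.82, 3.10 and 3.23 against 8.37, 8.73 and 8.54 FPKM) and the transporter SLC27A2 was lower (1.56, 1.68 and 1.87 against 0.0864, 0.371 and 0.155 FPKM). LPL, which frees fatty acids from lipoproteins, was at 1.58, 2.76 and 2.33 against 1.18, 1.18 and 0.822 FPKM without a call.

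The study chose candidate genes of each depot on the same series, so they are no independent evidence. Of 15 tested genes, a subset of these candidates, CACNG7 was called higher (1.37 against 4.24 FPKM) and FABP4 lower, against 1.87% and 0.713% of all genes. AGT was at 3.42, 3.33 and 2.99 FPKM in BF-0d and at 1.74, 1.44 and 2.39 FPKM in IMF-0d (adjusted p = 0.0756). CAT, the catalase that removes hydrogen peroxide, was at 32.1, 32.0 and 32.7 against 25.0, 25.3 and 21.8 FPKM (adjusted p = 0.583). IGF1 was at 16.4, 13.3 and 14.2 against 18.6, 17.8 and 14.2 FPKM. FGF2 was not called either.

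Structural matrix genes were read against the 2.58% of all genes called. Of 26 tested collagen chains, COL8A1, a short-chain collagen of vessel walls and basement membranes, was called higher (4.02, 5.02 and 3.79 against 21.3, 26.2 and 19.7 FPKM) and 0 were lower. COL1A2 was at 5415 against 5070 FPKM on average. Small leucine-rich proteoglycans, which regulate the width of collagen fibrils, had PRELP higher (8.57, 8.61 and 7.92 against 45.8, 45.2 and 44.4 FPKM), FMOD higher (421 against 881 FPKM) and OMD lower (22.7 against 7.04 FPKM) among 14 tested. Decorin (DCN), at 1004 against 777 FPKM, and biglycan (BGN), at 713 against 1247 FPKM, were not called. OMD was not called without BF-0d replicate 1, BF-0d replicate 2, IMF-0d replicate 1 or IMF-0d replicate 3 and FMOD was not called without IMF-0d replicate 3, after median ratio scaling or after quantile normalization.

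Elastic fibre genes, 22 tested, had 2 higher and 2 lower members (1.87% and 0.713% of all genes), and 4 lower members after median ratio scaling or quantile normalization. LOXL3, a lysyl oxidase that cross-links matrix, was higher (16.5, 15.9 and 17.8 against 40.3, 48.2 and 51.5 FPKM), and so was FBLN1 (2.70 against 9.31 FPKM, kept in 2 of the 6 fits without 1 library). ELN and LOXL1, which cross-links elastin, were lower, LOXL1 at 31.3, 33.4 and 34.5 against 13.9, 12 and 14.6 FPKM. The fibrillin gene FBN1 and FBLN2, the most abundant members, were not called. ELN and LOXL1 shared a direction, opposite to LOXL3.

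Proteases and their inhibitors gave 2 higher and 2 lower members of 30 (1.87% and 0.713% of all genes). SERPINE2, a secreted inhibitor of serine proteases, was at 161, 167 and 163 FPKM in BF-0d and at 439, 437 and 415 FPKM in IMF-0d, a log2 difference of 1.39 ± 0.247. MMP2, the gelatinase that cuts collagen, was at 935, 1045 and 1066 against 463, 436 and 517 FPKM, and ADAMTS15 at 2.43 against 0.557 FPKM. Both lower members are proteases.

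Among contractile genes 3 of 19 were higher (1.87% of all genes) and 0 lower, with a median of 0.44. In 18 of the 19 the difference was above 0 (54.8% of all genes). In 15 all IMF-0d libraries were above those of BF-0d (23.5%). Desmin (DES), the intermediate filament of muscle and pericytes, was at 4.67, 4.50 and 4.88 FPKM in BF-0d and at 29.6, 36.2 and 45.3 FPKM in IMF-0d, a log2 difference of 2.72 ± 0.292. SYNPO2 was at 3.56, 4.47 and 2.39 against 27.7, 31.1 and 21.9 FPKM. CNN1, the smooth muscle calponin, was at 19.1 against 49.6 FPKM on average but was called in 0 of the 6 fits without 1 library. The smooth muscle genes ACTA2 (1.18 times the BF-0d level) and TAGLN (1.64 times) were not called. The adhesion receptors NCAM1 (10.8, 13.1 and 14.1 against 61.0, 60.2 and 49.7 FPKM) and ITGA7 (0.0667, 0.0861 and 0.156 against 2.09, 2.35 and 3.35 FPKM) were also higher, while the 4 myogenic factors named above were listed at 0. In the list of pericyte and smooth muscle markers, 2 of 12 were higher (DES and CNN1) and ABCC9 was lower (4.52 against 1.03 FPKM), against 1.87% and 0.713% of all genes. ABCC9 was not called without IMF-0d replicate 2 (adjusted p = 0.0109 by limma). The summed level of the list was 169 to 198 FPKM in BF-0d and 265 to 355 FPKM in IMF-0d, and RGS5, a defining pericyte marker, was at 0.0344 to 0.0639 against 0.753 to 1.51 FPKM without a call. The part of such cells in the results was not tested.

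For the growth factor lists the background is that 1.87% of all genes were called higher and 0.713% lower. In the insulin-like growth factor system of 17 genes, 2 binding proteins were higher and 0 genes lower. IGFBP6, which binds IGF2 by preference, was at 9.43, 12.8 and 16.9 FPKM in BF-0d and at 86.4, 74.8 and 105 FPKM in IMF-0d, a log2 difference of 2.69 ± 0.177 with an adjusted p of 2.01e-09. IGFBP2 was at 146, 162 and 200 against 534, 513 and 707 FPKM, a call that was lost without any 1 of the 6 libraries. IGFBP5, at 30.3 against 110 FPKM, had an adjusted p of 0.0186 in the shared fit and was called in the fit on 6 libraries. IGF1, IGF1R and INSR were not called.

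In the WNT pathway, which holds preadipocytes undifferentiated, 2 of 34 genes were higher and 2 lower (1.87% and 0.713% of all genes). The secreted inhibitor SFRP5 was at 0.966, 1.40 and 1.73 FPKM in BF-0d and at 7.17, 7.59 and 9.69 FPKM in IMF-0d, and the receptor FZD8 at 0.757 against 3.37 FPKM. RSPO1, a secreted amplifier of WNT signals, was at 2.12, 2.40 and 2.09 against 0.0681, 0.0615 and 0.0319 FPKM, a log2 difference of -1.60 ± 0.0961 with an adjusted p of 6.67e-10. LEF1, a transcription factor of the pathway, was at 1.87, 1.79 and 1.76 against 0.279, 0.459 and 0.336 FPKM. SFRP2 and SFRP4, more abundant by far, were not called.

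Of 28 genes of the FGF, PDGF, HGF and VEGF systems, PDGFA (1.95, 2.26 and 2.73 against 9.85, 4.92 and 5.59 FPKM) and FGF1 (0.123 against 1.45 FPKM) were higher and FGF10, a growth factor of the developing fat pad, was lower (3.27, 2.96 and 2.86 against 0.267, 0.162 and 0.185 FPKM). VEGFA and ANGPTL2 were not called. In the TGF-beta, activin and BMP list 1 of 39 genes was called, a share near the 2.58% of all genes, namely GREM1, a secreted BMP antagonist, at 11.9 against 4.26 FPKM. PDGFA, FGF10 and GREM1 each kept the call in 5 and FGF1 in 4 of the 6 fits without 1 library. FSTL1 and the BMP target ID3 (244 against 432 FPKM, adjusted p = 0.0146) were not called. In the Hippo list 1 of 29 was called (2.58% of all genes), RASSF2, at 4.90 against 1.84 FPKM and kept in 2 of the 6 fits without 1 library, while the receptor kinase AXL (53.2 against 106 FPKM) and AMOTL2 were not. Of 20 chemokines and cytokines, CXCL2 alone was called (2.58% of all genes), and CCL2 was at 485, 399 and 429 against 397, 429 and 445 FPKM.

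Retinoid genes carry and convert vitamin A and its active form retinoic acid. Of 17 tested, 4 were higher in IMF-0d (1.87% of all genes) and 0 lower, with a median of 0.55. RBP4, the retinol carrier of blood, was at 1.18, 1.13 and 0.969 FPKM in BF-0d and at 11.06, 7.13 and 11.4 FPKM in IMF-0d, a log2 difference of 2.35 ± 0.157 with an adjusted p of 2.2e-09. The retinal reductase DHRS3 was at 19.9 against 51.4 FPKM and ALDH1A1, which makes retinoic acid, at 55.8, 78.3 and 69.8 against 174, 154 and 129 FPKM. The call of RBP4 held without each library. The list fell to 1 call after median ratio scaling, 2 after quantile normalization, and 1 without BF-0d replicate 1, BF-0d replicate 2 or IMF-0d replicate 3. CRABP2, the most abundant member at 143 against 220 FPKM, was not called.

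Transcription factors of body position were compared because the depots lie in different tissues, and cells keep this code in culture. Of 51 tested HOX and other positional factors, 5 were higher and 2 lower (1.87% and 0.713% of all genes). The lower count was 4 without BF-0d replicate 1, 3 without BF-0d replicate 2, IMF-0d replicate 1 or IMF-0d replicate 3, 1 without BF-0d replicate 3, 4 after median ratio scaling and 7 with a pseudocount of 0.1. MEOX2, a homeobox factor of somites and limb muscle, was at 2.05, 1.54 and 1.62 FPKM in BF-0d and at 9.98, 12.3 and 10.2 FPKM in IMF-0d. HOXA9 was at 0.693, 0.932 and 0.651 against 5.23, 5.49 and 3.85 FPKM, and HOXA10 at 0.0390, 0.0910 and 0.146 against 1.88, 1.67 and 1.87 FPKM. HOXA5 (1.3 against 6.23 FPKM) and HOXA11 (0.181 against 1.39 FPKM, kept in 3 of the 6 fits without 1 library) were also higher. All 4 HOX genes called belong to the A cluster, at chr18:45388523-45392190 for HOXA11 and chr18:45429691-45432723 for HOXA5. EN1, a marker of dorsal and ventral patterning in the embryo, was lower (2.94, 5.0 and 4.63 against 0.838, 0.861 and 1.27 FPKM), as was IRX5 (1.99 against 0.374 FPKM), whose log2 difference was -0.98 without BF-0d replicate 3. PRRX1 and PRRX2, general factors of limb and trunk mesenchyme and the most abundant of the list, were not called.

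The HOX clusters run from genes of the head end (low numbers) to genes of the tail end (high numbers). Pooled over the clusters, the differences mostly changed sign with position. The grouping at number 5 was chosen after the values were seen, so it is a description only. Of 13 tested HOX genes numbered 1 to 5, 11 were below 0, with a median of -0.49. Of 17 numbered 6 to 13, 16 were above 0, with a median of 0.60. Over all genes 54.8% were above 0. By adjusted p alone 4 of the first group were lower and 1 was higher, and 8 of the second group were higher and 0 lower. Of all 16135 genes, 5.31% were higher and 371 genes lower by this criterion. HOXC4 was at 1.55, 1.92 and 1.94 FPKM in BF-0d and at 0.513, 0.390 and 0.304 FPKM in IMF-0d, a log2 difference of -1.0 ± 0.0976 just short of the fold threshold. HOXC9, in the same cluster, was at 1.33, 0.945 and 1.49 against 4.59, 2.54 and 3.42 FPKM, with a log2 difference of 0.99 ± 0.175. HOXB5 was lower by adjusted p (0.918 against 0.109 FPKM, adjusted p = 1.59e-05). HOXA5 stood against this order. Within single clusters, only HOXC held genes that passed the adjusted p threshold in both directions. HOXA had none lower, HOXB had none higher, and in HOXD only HOXD3 passed, as lower (adjusted p = 0.00731 by limma). Some differences above 0 were close to it, such as those of HOXB6 (0.005) and HOXD11 (0.01). The genes of a cluster share their regulation and are not independent.

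**Figure D4:**
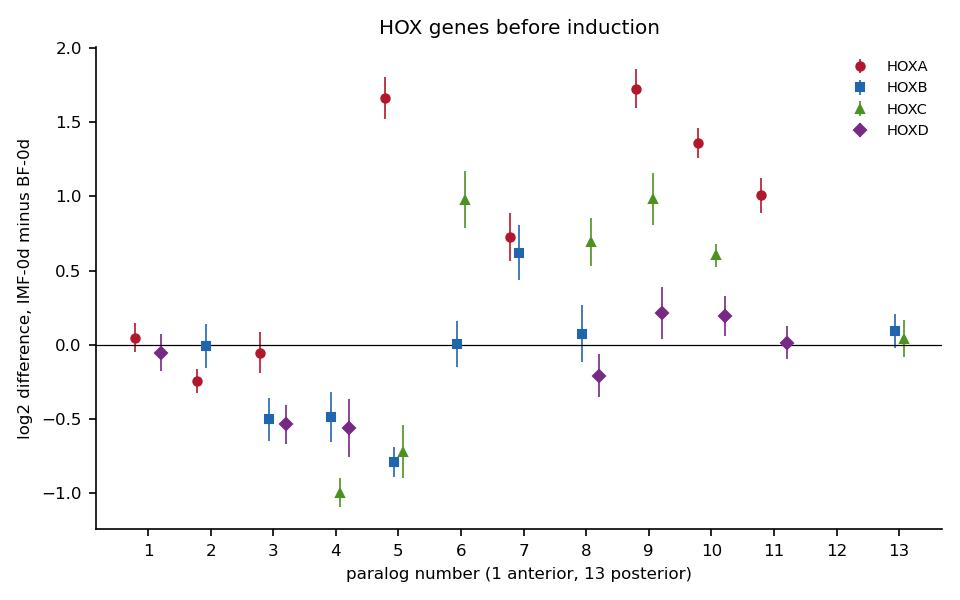
The log2 difference IMF-0d minus BF-0d of 30 tested HOX genes is plotted against the paralog number, with colours and marker shapes for the clusters A to D and bars for the SE of the limma fit. Points numbered 1 to 5 lie mostly below 0, with HOXA5 at 1.66 as the main exception. Points from 6 on lie mostly above 0, several of them close to it.

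The comparison was followed into differentiation to see whether a day-0 difference was still present later. Of the 302 genes higher in IMF-0d, 96 were called higher in IMF on day 2, 170 on day 4 and 117 on day 8, where 2.71%, 6.6% and 4.31% of all genes were called higher. In the opposite direction were 5, 14 and 9 of them. On all 4 days 42 were higher. Of the 115 genes lower in IMF-0d, 38, 32 and 21 were called lower on days 2, 4 and 8, against 2.02%, 4.72% and 2.65% of all genes, and 7 on all 4 days. On day 4, 19 of the 115 had turned to a call in the opposite direction.

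THBS4 was called higher on each later day as well, with log2 differences of 5.11, 5.86 and 6.17 on days 2, 4 and 8, each called. COMP was at 4.40 and TGFBI at 3.27 on day 8, both called, after values without a call on days 2 and 4. CFD stayed lower on every day, with -2.60, -3.53 and -3.20. MASP1 stayed lower on days 2 and 4 (-3.59 and -3.22) and reached -0.09 on day 8, where it was not called. POSTN turned from -3.07 on day 0 to 1.62 on day 4 and 2.79 on day 8, both called.

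The mitosis list was called higher in IMF in 4, 20 and 16 of 35 genes on days 2, 4 and 8. Of all genes 2.71%, 6.6% and 4.31% were called higher on these days, and 2.65% lower on day 8. The interferon-stimulated list turned around. Its 37 genes had 7 and 25 higher calls on days 2 and 4, and 0 higher and 18 lower calls on day 8, with medians of 1.65, 2.33 and -1.92. On day 8 the BF libraries differed strongly among themselves. ISG15 was at 90.5, 2764 and 1111 FPKM in BF-8d replicates 1 to 3 and at 90.5, 52.8 and 60.2 FPKM in IMF-8d. MX1 was at 54.9, 594 and 419 against 59.4, 48.6 and 47.6 FPKM. BF-8d replicate 1 thus lay with the IMF-8d libraries, and the day-8 order of the depots rested on BF-8d replicates 2 and 3. The test of the depot difference on day 8 against that on day 0 called 804 genes (4.98%), and among the day-0 calls 62 of the 302 higher genes and 50 of the 115 lower genes had shifted against their day-0 direction, while 7 and 0 had shifted further along it. These genes were chosen by their day-0 difference, which enters the change, so a surplus of shifts toward 0 follows from the choice and nothing is read from these counts. In the 12 libraries of both days with the replicate block, the changes of 7 interferon-stimulated genes among the largest (ISG15, MX2, OAS1, HERC5, OAS2, BST2 and MX1) were not called.

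**Figure D5:**
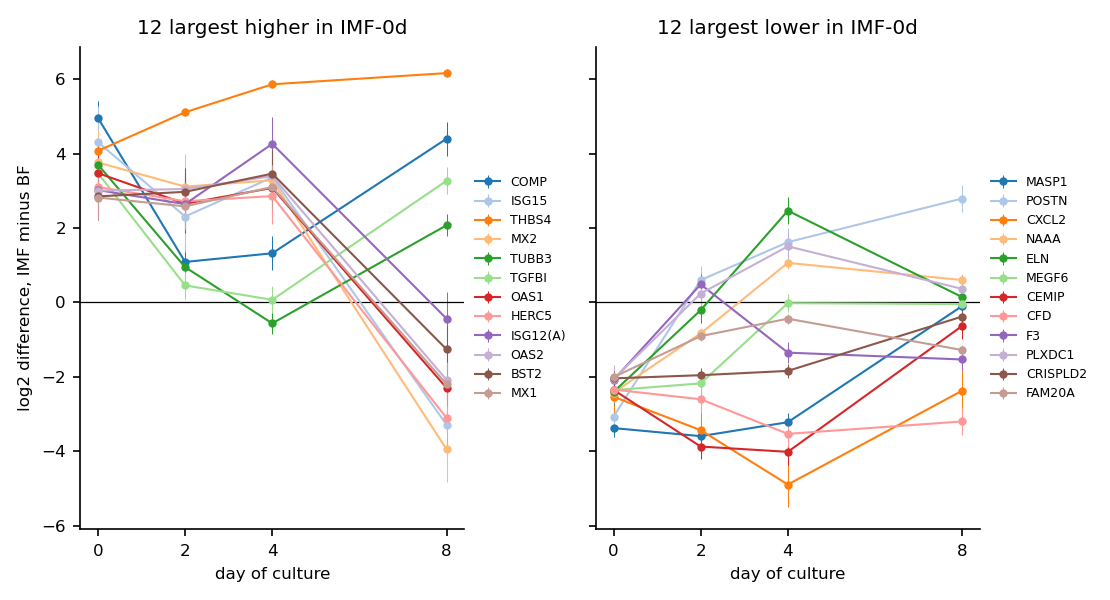
Lines follow the log2 difference IMF minus BF over days 0, 2, 4 and 8, with bars for the SE of the limma fit. The genes are the 12 largest differences in each direction on day 0 among called genes with a symbol. THBS4 climbs to 6.17, the interferon-stimulated genes drop below 0 on day 8, and CFD and CXCL2 stay below 0 on each day.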

How the data were processed

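RNA-seq values were deposited by the authors as a table of FPKM for 25462 genes in 24 libraries, 3 for each of 8 groups. The submitters' processing notes name StringTie 1.3.4d and DESeq2 1.6.3. The sequencing statistics of the study were not used here, and 0 columns were left unused. Genes whose FPKM summed to more than 1 were kept (16135). log2(FPKM + 1) was fitted with limma 3.58.1 in R 4.3.3 over all 24 libraries with trend and robust moderation, and p-values were adjusted by Benjamini-Hochberg over all genes tested. The fits were tested on simulated data. Tables, promoter windows and figures used Python 3.11.15, pandas 2.3.3, pysam 0.24.0 and matplotlib 3.10.9. Promoters were 250 bases before RefSeq gene starts on Sscrofa11.1. With 3 against 3 libraries an exact two-sided permutation test cannot go below 0.1, so none was used.

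The members, the 26 pathway lists and the 10 marker lists were chosen with earlier results of these data known. Named genes were the 12 largest called differences in each direction that had a symbol, no overlap and at least 1 FPKM on average in the higher depot, up to 4 called members in each direction and the 2 most abundant members of each list, and a few genes of fat biology. Other genes, among them VIM, STAT2, IFIT1, RIGI, CDK1, CENPF, FASN, EBF2 and the HOX genes without a call, were chosen after their values were seen. Alternatives changed the pseudocount, the filter, the scaling, the libraries fitted, the moderation, the replicate block and the fold threshold, and left out each library. Leaving out libraries for the change between days was chosen after seeing the data. Some genes of these lists enter the counts but are not reported here by name.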

Additional observations from a re-analysis of the deposited data

Results flagged for a closer look

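For the 24 genes named for the largest day-0 differences, 12 in each direction, the depot difference on day 8 was tested against that on day 0 as an interaction contrast in limma, and 16 of the 24 passed an adjusted p of 0.01 with a change of at least 1 on the log2 scale. These genes were chosen for a large day-0 difference, so a shift toward 0 is not independent of the choice. Values are the log2 difference IMF minus BF on day 8 minus that on day 0, ± SE.

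Among the genes higher in IMF-0d, THBS4 widened by 2.09 ± 0.159 (adjusted p = 3.21e-08). TUBB3, a tubulin gene, changed by -1.63 ± 0.415 (adjusted p = 0.00936). The interferon-stimulated genes changed by -7.71 ± 1.23 for MX2, -7.60 ± 1.36 for ISG15, -6.21 ± 1.05 for HERC5, -5.77 ± 1.1 for OAS1, -5.09 ± 0.847 for OAS2, -5.02 ± 0.85 for MX1 and -4.11 ± 0.887 for BST2. In these 7 genes the day-8 values rested on BF-8d libraries that differed among themselves, with MX2 at 8.88, 497 and 146 FPKM in BF-8d replicates 1 to 3. With the replicate block on the 12 libraries of both days, the changes of all 7 genes were not called. The part of single libraries in this change was not tested beyond leaving each out in turn.

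Among the genes lower in IMF-0d, POSTN changed by 5.86 ± 0.527, MASP1 by 3.28 ± 0.335, NAAA by 3.03 ± 0.222, ELN by 2.55 ± 0.506, PLXDC1 by 2.42 ± 0.534, MEGF6 by 2.31 ± 0.352 and CRISPLD2 by 1.66 ± 0.276. POSTN ended on the opposite side of 0, at 2.79 on day 8, and so did NAAA, ELN and PLXDC1 by smaller amounts. MASP1 and MEGF6 ended at -0.09 and -0.04. The other 8 of the 24 genes, COMP, TGFBI, ISG12(A), CXCL2, CEMIP, CFD, F3 and FAM20A, did not pass the test.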

How the results depend on the processing

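No called difference of a named gene changed sign under the alternatives run. The number of called genes rose from 417 to 759 with a pseudocount of 0.1 (516 higher, 243 lower) and was 1227 by adjusted p alone (856 higher, 371 lower). The cause was not tested for the pseudocount. It was 512 in the fit on 6 libraries (375 higher, 137 lower), and 375 to 412 with other filters, scalings or moderation. Leaving out each day-0 library gave 346 to 390 called genes, 251 to 288 of them higher and 90 to 107 lower. For the day-8 against day-0 change, leaving out a day-0 or day-8 library gave 637 to 987 genes, 357 to 485 positive and 260 to 509 negative, and the 12 libraries alone gave 1047. Of 94 named called genes, 72 to 80 kept the call without a given library, 81 after median ratio scaling and 85 after quantile normalization. THBS4 lost the call of its day-8 change with a pseudocount of 0.1, at 1.22, and 3 of the 16 called changes were lost in the 12 libraries alone.

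Deviations of same-numbered BF-0d and IMF-0d libraries correlated at 0.03, 0.04 and 0.16, not all above 0.1, so the numbers were not used to pair libraries; whether same-numbered libraries share a piglet is not known. With the replicate block, 418 genes were called in all 24 libraries (303 higher, 115 lower) and 498 in the 6 libraries (363 higher, 135 lower), and 93 and 92 of the 94 named genes kept the call. For the day-8 change the block gave 783 genes in 24 libraries and 1045 in 12, where 7 of the 16 changes named were lost, those of the interferon-stimulated genes. The FPKM keep no read counts, so no limit from depth could be computed.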
